A study of Mus musculus with 16 samples.

Results

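The regions described here were H3K4me3 peaks that muscle stem cells carried in both states of the study and that lay away from protein-coding genes. They were the narrow H3K4me3 peaks of the activated state (ASC) that overlapped a narrow H3K4me3 peak of the quiescent state (QSC) by at least 1 bp, overlapped no protein-coding gene record, and lay more than 2.5 kb from every end of such a record. They were thus chosen by the authors' H3K4me3 peak calls and by position. This rule gave 805 peaks of the 13693 shared ones and of the 15869 in the ASC list. They met 816 of the 14354 QSC peaks. The other shared peaks were 11447 within 2.5 kb of the end of a coding gene and 1441 inside gene bodies. H3K4me3 values of these peaks are given as a description and nothing is tested on them.

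The study took muscle stem cells of C57BL/6 mice, with skeletal muscle as the tissue, as QSC and as ASC, and profiled H3K4me3 and H3K27me3 in them. Each of the 4 combinations of state and mark had 2 immunoprecipitated samples, and each of these had an input, which gave 16 samples. No further allele or treatment is in the labels. The sources used here do not say how the cells were isolated or activated, how old the mice were, or whether replicates are different animals. The libraries were made by ChIPmentation, in which a transposase adds the sequencing adapters to chromatin already bound by the antibody. Both replicates of a group share a single peak list, so each value below stands for a group without replicate error, differences between the states have no replicate check, and read depth is unknown. The cell type was checked at marker genes: all 8 muscle stem cell genes looked up had an H3K4me3 peak within 2.5 kb of an end in both states. They included Pax7, the transcription factor that defines these cells, with an authors' fold enrichment of 26.4 in QSC and 47.0 in ASC, and Myf5 with 19.1 and 35.6. None of the 3 blood genes reported (Ptprc, Cd3e and Itgam) had one in either state, and neither did the endothelial genes Pecam1 and Cdh5. The endothelial gene Tek had a peak in both states, at 7.98 in QSC and 6.14 in ASC. Of the fibro-adipogenic genes, Pdgfra and Col1a1 had a peak in ASC only, with folds of 5.24 and 4.15.

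H3K4me3 is a histone mark of promoters that are active or poised. Between coding genes it is found at promoters of long noncoding RNAs (lncRNAs), at promoters of microRNA precursors, beside tRNA genes, which RNA polymerase III transcribes from promoter elements inside the gene, and at some enhancers. A microRNA (miRNA) is cut from a hairpin in a longer transcript that can start many kilobases upstream, and it recognises its targets mainly through its seed, bases 2 to 8. H3K27me3 is the mark of Polycomb repression, and a promoter that carries both marks is called bivalent.

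The miRNA hairpins whose nearest shared peak was one of these gave 116 mature names with 100 different seeds. Mature sequences from some of these loci are shown first, most of them picked because they share a seed with another. They are from RefSeq (GRCm38.p6, the build that shares its coordinates with mm10), 5′ to 3′ with the seed in capitals. The let-7 miRNAs, known for promoting differentiation, were the largest group: 6 mature names with the same seed came from 7 hairpins whose nearest shared peak was one of these.
let-7a-5p: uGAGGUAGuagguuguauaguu
let-7b-5p: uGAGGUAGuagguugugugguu
let-7c-5p: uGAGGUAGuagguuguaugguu
let-7d-5p: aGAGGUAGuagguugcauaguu
let-7f-5p: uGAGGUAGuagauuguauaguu
let-7i-5p: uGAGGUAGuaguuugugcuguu

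Other pairs with a common seed came from the same locus (miR-29a and miR-29b, miR-221 and miR-222, miR-17 and miR-20a) or from separate loci that both had such a peak (miR-193a and miR-193b). The muscle miRNAs miR-206 and miR-133b have different seeds and share the locus with the largest ratio of ASC to QSC peak length.
miR-29a-3p: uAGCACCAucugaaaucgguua
miR-29b-3p: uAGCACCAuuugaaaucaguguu
miR-221-3p: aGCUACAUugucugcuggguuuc
miR-222-3p: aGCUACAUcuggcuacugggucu
miR-17-5p: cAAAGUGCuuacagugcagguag
miR-20a-5p: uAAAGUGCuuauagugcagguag
miR-193a-3p: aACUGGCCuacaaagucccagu
miR-193b-3p: aACUGGCCcacaaagucccgcu
miR-206-3p: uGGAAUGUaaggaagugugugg
miR-133b-3p: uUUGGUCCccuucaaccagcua

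Noncoding gene records lay at more of these peaks than at the other shared peaks. A record of the RefSeq gene table overlapped the peak or lay within 1 kb of it at 464 of 805 (57.6%), against 19.8% in gene bodies and 19.8% at gene ends. A lncRNA record was at 362 (45.0%, against 17.5% and 16.4%), a tRNA record at 64 (7.95%, against 0.139% and 0.446%) and a pseudogene record at 56 (6.96%, against 0.833% and 1.10%). Small nuclear or nucleolar RNAs were at 16 (1.99%, against 0.416% and 1.07%). A miRNA record was at 12 (1.49%), a share close to the 1.18% in gene bodies and 1.25% at gene ends. A record of another class was at 10 (1.24%, against 0.278% and 0.227%). Records of more than 1 class were at 52 peaks, and 341 (42.4%) had none. The rule sets the places by coding records, and how far this bears on the shares was not tested. The sources used here do not say how the authors treated reads that fit several places, which bears on tRNA and pseudogene records. The comparison of record classes by place is plotted, and the lncRNA bars are the highest at every place.

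**Figure D1:**
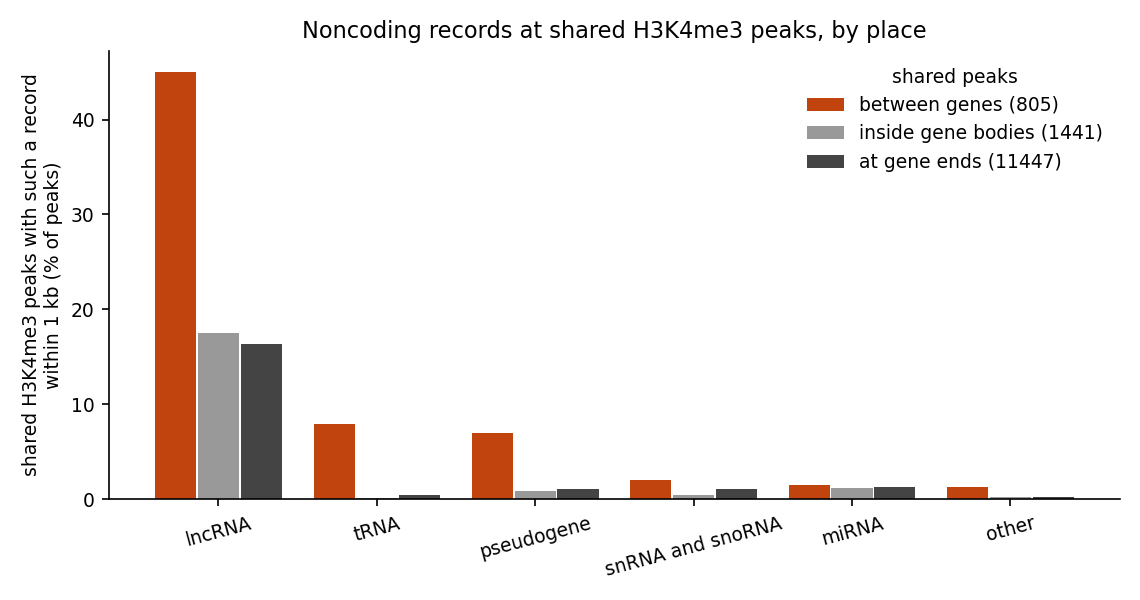
Share of shared H3K4me3 peaks (y axis, % of the peaks of a place) with a noncoding record of each class (x axis) overlapping or within 1 kb, for peaks between genes, inside gene bodies and at gene ends, with the number of peaks in brackets. The lncRNA bar is 45.0% between genes and 17.5% and 16.4% at the other places, and the tRNA bar is 7.95% against 0.139% and 0.446%.

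As a set these were modest peaks. Folds of the QSC and ASC lists are printed side by side but are not on a common scale, since over all shared peaks the median was 10.9 in QSC and 19 in ASC, so a higher ASC fold is no sign of a gain. Their median authors' fold enrichment was 8.49 in the ASC list, against 12.6 in gene bodies and 20.6 at gene ends, and their median place in the ASC list was the 27.5th percentile. In the QSC list the median was 6.05, against 8.95 and 11.6. Median lengths were 1337 bp in ASC and 1026 bp in QSC. Only 132 of 805 reached the median fold of the ASC list. Across the 805 peaks the ASC and QSC folds had a Spearman correlation of 0.70, and across all 13693 shared peaks of 0.77. These are correlations across peaks, which are not replicates. The strength differed by record: the median ASC fold was 28.9 at the 12 peaks with a miRNA record, 17.8 with a small nuclear or nucleolar RNA, 15.9 with a tRNA, 9.93 with a pseudogene, 9.39 with a lncRNA and 7.22 with no record. The QSC medians had nearly the same order, with 13.5, 12.2, 8.23, 6.29, 6.77 and 5.32.

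**Figure D2:**
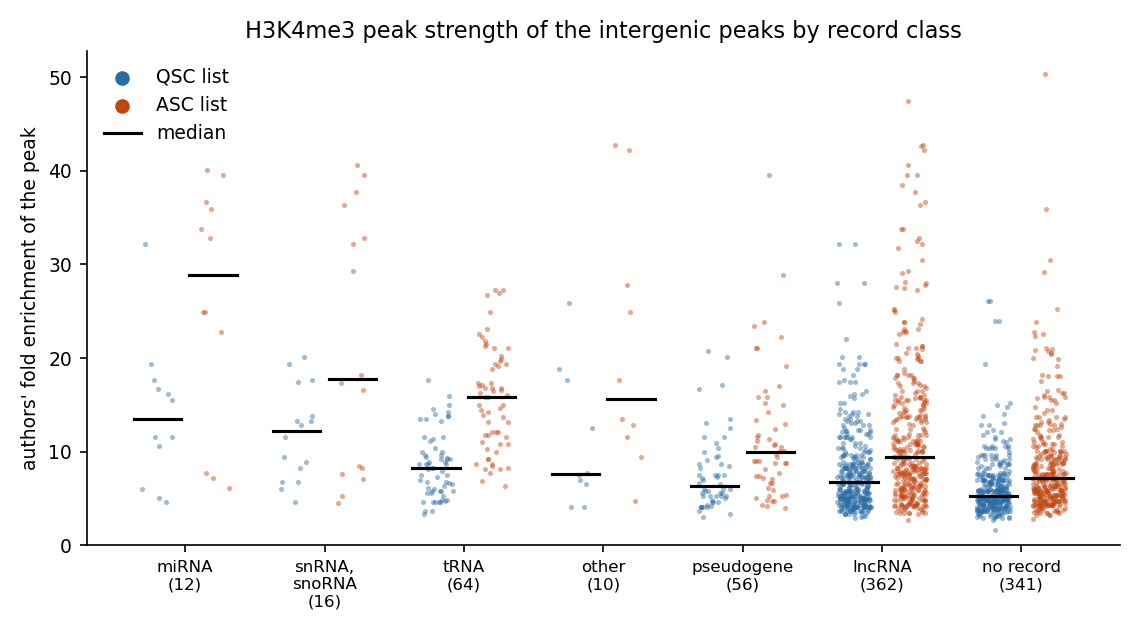
Authors' fold enrichment (y axis, linear, from 0) of each intergenic peak in the QSC list (strongest overlapped peak) and in the ASC list, by class of noncoding record (x axis, number of peaks in brackets, a peak with 2 classes drawn in both). Black lines are medians: 28.9 for miRNA records and 7.22 for no record in ASC, where the point at 50.4 is the peak upstream of let-7c-2 and let-7b.

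The 10 highest ASC folds are given in order. The strongest was the peak at chr15:85670882-85689452, with 50.4 in ASC and 24 in QSC, which has no noncoding record and lies upstream of let-7c-2 and let-7b. Next came Chaserr, a lncRNA that restrains its neighbour Chd2 (chr7:73554097-73560026, 47.5 in ASC and 20.1 in QSC). The records Gm9734 (miscellaneous RNA) and 2810410L24Rik (lncRNA) shared a peak with 42.8 and 18.9. A peak inside Dleu2, the host of miR-16-1, had 42.6 and 17.4, and Malat1, an abundant nuclear lncRNA, 42.3 and 25.9. The list went on with 1110038B12Rik (lncRNA, with the nucleolar RNA Snord52) at 40.6 and 17.6, Mir193a at 40.1 and 16.7, the nucleolar RNA host Snhg17 at 39.6 and 20.1, Mir100hg with Mir125b-1 at 39.6 and 11.6, and Neat1, the scaffold of paraspeckles, at 38.5 and 28.1. All 10 were also above the QSC median of these peaks.

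Hosts of small nucleolar RNAs, whose introns carry the guides for modifying ribosomal RNA, were among the strong peaks. Of the Snhg hosts looked up, Snhg4, Snhg5, Snhg15, Snhg17 and Snhg20 had an intergenic peak, with ASC folds of 32.9, 32.2, 37.8, 39.6 and 33.8 and QSC folds of 11.6, 13.8, 17.4, 20.1 and 19.4. Dancr, which hosts Snora26, had 36.3 and 19.4. Others, among them Snhg1, Snhg3 and Snhg12, had their shared peak at the end of a coding gene and so are no members. Of 63 long noncoding and host RNAs looked up, 24 had an intergenic shared peak, 23 only another shared peak and 16 none. Xist, Tsix, Rian and Mirg were among those with none, while Jpx and Ftx, lncRNAs of the X-inactivation centre, had peaks with ASC folds of 7.77 and 7.95. H19, an imprinted lncRNA that holds miR-675, had 6.11 in ASC and 5.01 in QSC. Meg3, a maternally expressed lncRNA upstream of a large miRNA cluster, had a short ASC peak of 593 bp with a fold of 3.97 over a QSC peak of 1868 bp with 7.74.

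Promoter sequences are shown for 3 lncRNAs that differ in base composition: Chaserr for the strongest peak at an annotated start, Dancr for a strong host RNA whose peak was longer in ASC, and Lincmd1 for the largest ratio of ASC to QSC peak length. Each runs from 250 bases before to 50 bases after the annotated start, on the strand of the gene. Capitals mark matches on either strand to 6 motifs: TATAAA for the TATA box, CCAAT for the box of that name, CCGGAA for ETS factors, GGGCGG for Sp1-like factors, CACGTG for the E box of Myc and TGANTCA for AP-1. The windows are chr7:73558346-73558645 on the minus strand for Chaserr, chr5:74092810-74093109 on the plus strand for Dancr and chr1:20669632-20669931 on the plus strand for Lincmd1.
Chaserr: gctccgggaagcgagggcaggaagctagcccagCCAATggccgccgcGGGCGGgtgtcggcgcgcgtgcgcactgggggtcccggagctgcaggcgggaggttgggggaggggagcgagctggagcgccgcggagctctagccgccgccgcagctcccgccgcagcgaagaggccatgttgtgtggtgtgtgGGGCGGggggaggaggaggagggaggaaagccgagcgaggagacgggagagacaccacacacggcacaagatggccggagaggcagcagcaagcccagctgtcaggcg
Dancr: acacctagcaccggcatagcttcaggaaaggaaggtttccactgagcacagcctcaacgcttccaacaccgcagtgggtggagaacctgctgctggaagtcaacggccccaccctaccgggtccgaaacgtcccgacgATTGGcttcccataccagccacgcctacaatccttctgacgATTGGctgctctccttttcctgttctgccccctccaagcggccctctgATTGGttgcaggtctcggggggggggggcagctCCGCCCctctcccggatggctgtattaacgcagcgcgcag
Lincmd1: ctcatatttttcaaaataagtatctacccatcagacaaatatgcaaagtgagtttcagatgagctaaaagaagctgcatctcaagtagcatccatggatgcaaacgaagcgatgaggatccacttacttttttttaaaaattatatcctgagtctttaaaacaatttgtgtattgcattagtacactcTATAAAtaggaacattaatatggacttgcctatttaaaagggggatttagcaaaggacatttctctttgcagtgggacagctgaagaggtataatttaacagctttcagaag

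The Chaserr window had 30 CG dinucleotides and 72.3% G and C, with 1 CCAAT and 2 GGGCGG matches. Dancr had 18 CG dinucleotides, 3 CCAAT matches at -112, -71 and -23 from the start and GGGCGG at 10, all of these matches on the other strand. Lincmd1 had 2 CG dinucleotides, 34.3% G and C and TATAAA at -62. Over the 203 lncRNA promoters of the table whose start lay inside an intergenic peak, the median was 12 CG dinucleotides, against 4 over all 11588 lncRNA promoters, 23 over the 1254 lncRNA starts inside other shared peaks and 13 over 21263 coding promoters. GGGCGG was in 46.3% of the 203, against 16.3% of all lncRNA promoters, 60.8% of the lncRNA starts in other shared peaks and 46.2% of coding promoters. CCGGAA was in 27.1%, against 7.94%, 23.8% and 18.7%. TATAAA was in 10.8%, against 15.5%, 5.66% and 12.6%. The remaining motifs of these windows were CCAAT in 34.5% (all lncRNA promoters 36.0%), CACGTG in 10.8% (5.89%), TGANTCA in 7.88% (9.31%), CANNTG, the E box of myogenic factors, in 73.9% (78.4%), and GTTCNANNC, the B box of tRNA genes, in 11.3% (11.0%), all read on both strands. A match is a run of letters and no evidence of binding.

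Annotated lncRNA starts lay inside 163 of the 362 peaks with a lncRNA record, and 9 peaks held starts on both strands. The ASC summit was downstream of the start at 136 of the 163, with a median of 242 bp and quartiles of 105.5 and 425.5 bp. At Chaserr, Dancr and Lincmd1 it was 844, 382 and 1367 bp downstream.

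The stretch upstream of let-7c-2 and let-7b was the longest of the domains made of intergenic peaks alone. In the ASC list it consisted of 3 intergenic peaks of 6391, 11146 and 18571 bp with folds of 20.0, 23.8 and 50.4, which, joined where at most 1 kb apart, made a domain of 36575 bp, chr15:85652878-85689452. This ranked 2 in length of all 14116 ASC domains. In the QSC list the same stretch was cut into 3 domains, and the longest of these, 25532 bp, ranked 1 of all 13170 QSC domains. The ASC domain ended 17151 bp before the let-7c-2 hairpin, and its last peak was 45458 bp from Ppara, the nearest coding gene. Neither list of H3K27me3 broad peaks touched any of the 3 peaks. Nearer to the hairpin, 2965 bp before it, lay a weak peak at the lncRNA Lncppara of 2126 bp in ASC, over a QSC peak of 309 bp, with folds of 3.85 and 3.38. The longest ASC domain of all, 45438 bp, ran through the Hoxc genes and held the intergenic peak of the lncRNA Hotair.

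Further let-7 loci followed. Of 12 let-7 and Mir98 hairpins, 7 had an intergenic peak as the nearest shared peak that covered them or lay up to 50 kb upstream, 2 had a peak at a gene end (let-7e and let-7g) and 3 had none in that window. This window was chosen after the data had been seen. The peak over let-7i was 4488 bp long in ASC, against 2668 bp in QSC, with folds of 35.9 and 15.5. The peak before let-7a-1, let-7f-1 and let-7d, chr13:48541951-48546644, measured 4694 and 1822 bp, with folds of 22.8 and 14.8, and ended 3679 bp from the first hairpin. The peak before miR-99a and let-7c-1 measured 4332 and 2363 bp, with folds of 12.8 and 5.81. Upstream of it, the host record Mir99ahg had 4 intergenic peaks, with ASC folds from 7.04 to 15.2. At the peaks of let-7i, let-7a-1 and miR-99a the ASC peak was the longer one, as at 635 of all 805 (78.9%). In the long stretch before let-7c-2 the 3 ASC peaks were shorter than their summed QSC peaks. The lengths were 6391 against 6557, 11146 against 14699 and 18571 against 23903 bp. A QSC peak of 13685 bp met both of the last 2 and was counted for each. With peaks joined, the stretch measured 36575 bp in ASC and 33103 bp in QSC.

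Over all miRNAs, 584 of 1005 hairpins in the table had a shared peak over them or up to 50 kb upstream, and for 62 (10.6%) the nearest was an intergenic peak. These hairpins had 30 different intergenic peaks, since hairpins of a cluster share a peak. Those after Meg3 lie up to 49986 bp from its peak. All 805 together make up 5.88% of shared peaks, which is a share of peaks and not of hairpins. Among the 130 hairpins with a shared peak in that window that lie in no coding record, the number was 53. The rule keeps these peaks away from coding records, so this choice of hairpins favours them. Of these 30 peaks, 9 had neither a miRNA nor a lncRNA record at the peak itself, and 8 of the 9 had no record at all. An example is chr6:31082838-31088603, which lies 19745 bp upstream of miR-29b-1 and had a fold of 35.9 in ASC and 6.26 in QSC. The peak 16365 bp before miR-222 and miR-221 had 23.1 and 5.81, with lengths of 5426 and 2899 bp. The peak of miR-17, miR-18, miR-19a, miR-20a, miR-19b-1 and miR-92-1, a cluster known for promoting proliferation, covered all 6 hairpins in ASC (chr14:115041919-115044523), while the QSC peak, chr14:115040135-115042982, ended before the first. The peak over the hairpins had folds of 22.8 and 10.6 and lengths of 2605 bp in ASC and 2848 bp in QSC. In ASC this locus was split into 3 intergenic peaks that met the same QSC peak, and joined they measured 4749 bp. At miR-193a the ASC peak was 5508 bp long over a QSC peak of 2015 bp, and at miR-193b the lengths were 3234 and 2935 bp, with folds of 24.9 and 16.2. The peak before miR-23a, miR-27a and miR-24-2 had a fold of 29.2 in ASC and 26.1 in QSC. The peak before miR-155, an miRNA of immune activation, measured 2637 and 1115 bp, and the 1 before miR-30a 2402 and 1616 bp. The miR-155 peak lay 9094 bp before the hairpin and overlapped broad H3K27me3 peaks in both states. The host record Mir155hg itself had no shared peak. No peak of any place that was shared overlapped or lay within 1 kb of the 9 muscle miRNA hairpins looked up, including miR-1a, miR-133a and miR-499; for miR-206 and miR-133b the peak was the upstream Lincmd1 peak.

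**Figure D3:**
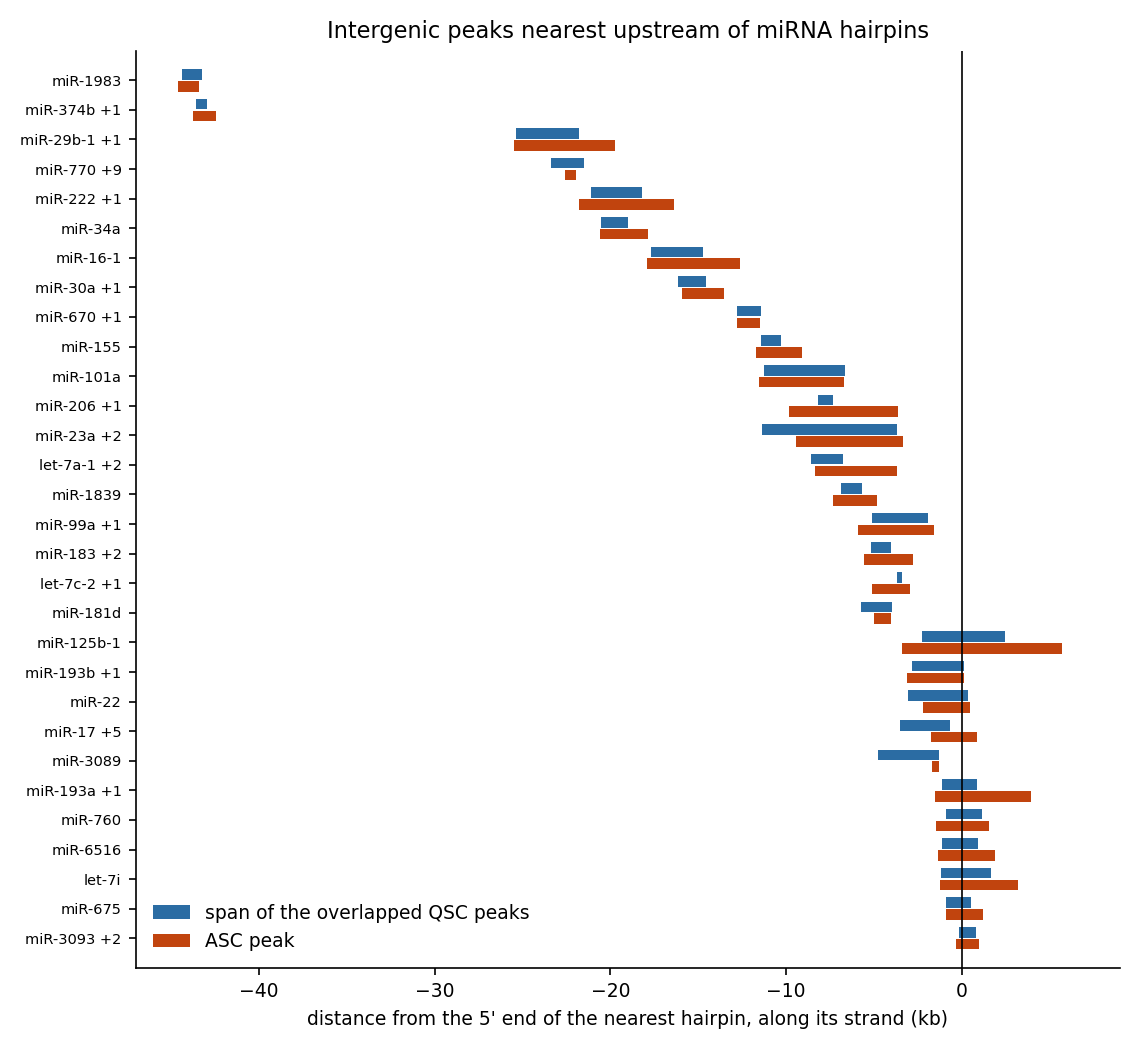
The 30 intergenic peaks that are the nearest shared peak over or upstream of a miRNA hairpin, one row each, drawn by distance from the 5′ end of the nearest hairpin along its strand (x axis, kb, 0 is the hairpin, negative is upstream). Lower bars are the ASC peak and upper bars the span of the QSC peaks it overlaps, and +n counts further hairpins with the same peak. The QSC bar of miR-206 is 849 bp and the ASC bar 6157 bp.

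tRNA genes were the second class by number of peaks. Of 408 tRNA records, 117 (28.7%) lay at intergenic shared peaks, 66 at gene-end peaks, 3 at gene-body peaks and 51 at ASC peaks with no QSC partner, and 171 (41.9%) had no ASC peak within 1 kb. The 117 records sat at 64 peaks, of which 32 had 1 tRNA record and 32 had more, up to 5. The summit of the ASC peak was never inside a tRNA record: its distance to the nearest was 141 to 1061 bp, with a median of 318 bp. Median folds of these peaks were 15.9 in ASC and 8.23 in QSC. By amino acid, 11 of 16 proline and 15 of 25 leucine tRNA records were at intergenic shared peaks, but 1 of 56 for cysteine, of which 52 had no ASC peak. tRNA copies are near-identical in sequence, so short reads can be placed on several of them, and the sources used here do not say how the authors treated such reads.

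Chromosome 13 held 62 of the 805 peaks (7.70%), against 4.15% of all shared peaks. Between 21 and 24 Mb, in the large tRNA cluster beside the histone genes, there were 23, and 22 of them were at tRNA records. The remaining peak was at Zfp389. Of the 104 tRNA records of that stretch, 44 were at intergenic shared peaks. The strongest of them, at n-TMcat8, a methionine tRNA record, had a fold of 26.7 in ASC and 10.4 in QSC. The longest, with 5395 bp in ASC against 2614 bp in QSC, held n-TYgta6, n-TAagc13 and n-TYgta7 and had 16.3 and 7.50.

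Of 10 structural RNA records looked up, 3 had an intergenic shared peak. Terc, the RNA of telomerase, had 13.5 in ASC and 7.50 in QSC. Rny3, a Y RNA, had 9.39 and 4.11. Rn7sk, the RNA that holds the elongation factor P-TEFb inactive, had 8.31 in ASC and 13.3 in QSC.

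Distance to coding genes varied widely. The median was 19604 bp, 191 peaks (23.7%) lay 50 kb or more away, and 83 lay 100 kb or more away. The farthest was at the lncRNA 1700019L22Rik, 1392405 bp from Tenm3. At the limit of the rule, the 5 nearest peaks inside it were 2509 to 2601 bp from Ski, Mycbp2, Btn1a1, Spocd1 and Snx9, with ASC folds of 5.0, 8.13, 17.2, 4.40 and 3.43. The 5 just outside it were 2404 to 2485 bp from Gm5737 (coding), Utp14a, Fcgr4, Bcl9l and Hpdl, with 12.5, 9.75, 15.1, 14.4 and 12.8. The 805 peaks had 672 different nearest coding genes, and 496 of these (73.8%) had a shared H3K4me3 peak within 2.5 kb of an end, against 55.1% of all 21887 coding genes. The share was 72.6% for the peaks with a noncoding record and 75.4% for those without.

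Some neighbours were regulators of muscle stem cells, although the nearest gene on the chromosome is no evidence of a target. Of all 21887 coding genes, 3.07% were the nearest of an intergenic peak. In the lists, which were chosen with earlier results known, the share was 10 of 38 myogenic genes (26.3%), 8 of 29 immediate early genes (27.6%), 3 of 13 Notch genes (23.1%), 4 of 23 cell cycle genes (17.4%) and 5 of 34 other mesenchymal transcription factors (14.7%), and these were not tested against the background. Peaks nearest to genes of the myogenic list numbered 10. The 1 at Gm33152 (lncRNA), 5568 bp from Pax3, a paralogue of Pax7, had 11.4 in ASC and 7.50 in QSC, and the 1 at Gm16897 (lncRNA), 14686 bp from Cd34, a surface marker of quiescent cells, had 17.0 and 14.3. Id2, an inhibitor of myogenic helix-loop-helix factors, had a peak 2873 bp away with 15.2 and 9.19. In the immediate early list there were also 10. They included Pvt1, a lncRNA 46905 bp from Myc, with 28.2 and 16.2, the peak 40603 bp from Atf3 with 18.2 and 13.8, and the peak 8360 bp from Fos with 13.4 and 8.47. For Notch genes, whose signalling maintains quiescence, there were 3, at Notch3 (13.9 and 13.1), Dll1 (4.33 and 3.77) and Nrarp (4.31 in ASC). The cell cycle list had 5, with the highest fold 45320 bp from Cdk1 (21.1 and 12.8), and the list of other mesenchymal transcription factors had 7, led by a peak 62332 bp from Sox4 (22.9 and 14).

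Most intergenic peaks were longer in ASC, as were most shared peaks elsewhere. The ASC peak was longer than the summed QSC peaks at 635 of 805 (78.9%), against 75.2% in gene bodies and 82.8% at gene ends, and the median log2 length ratio was 0.42, against 0.46 over all shared peaks. A ratio of at least 2 was found at 111 (13.8%, against 11.3% of all shared peaks) and of at most 0.5 at 27 (3.35%, against 4.37%). The shares were close to the background. By class, 15 of 64 tRNA peaks (23.4%), 12 of 56 pseudogene peaks (21.4%), 3 of 16 peaks of small nuclear or nucleolar RNAs (18.8%), 2 of 12 miRNA peaks (16.7%), 56 of 362 lncRNA peaks (15.5%) and 36 of 341 peaks with no record (10.6%) had a ratio of at least 2. The differences between classes were not tested. With broad H3K4me3 lists, the share at or below 0.5 was 19% and the median log2 ratio 0.01.

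The largest ratio was at Lincmd1, the lncRNA of muscle differentiation that hosts miR-206 and miR-133b. A QSC peak of 849 bp with a fold of 5.81 faced an ASC peak of 6157 bp with a fold of 27.8, a log2 length ratio of 2.86. The ASC peak, chr1:20669206-20675362, ended 3648 bp before miR-206. Lncppara followed with 2.78, then a peak with no record 136209 bp from Mpdz (436 and 2661 bp, 2.61), another 268423 bp from Zfp507 (222 and 1292 bp, 2.54) and a peak of Mir99ahg (1189 and 5727 bp, 2.27). Firre, an X-linked lncRNA of nuclear organisation, measured 564 and 2069 bp. Joining peaks at most 1 kb apart left the ratios of Lincmd1 and of the peaks near Mpdz and Zfp507 unchanged. It gave 3.70 at Lncppara and 1.95 at the Mir99ahg peak. These peaks were picked for their ratios, and several had a very short QSC peak. The 222 bp near Zfp507 was the smallest summed QSC length of the 805, and joining does not probe this.

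The smallest ratios came mostly from peaks that were split in ASC. Of the 27 at or below 0.5, 19 shared their QSC peak with another ASC peak. Among the 758 peaks without such sharing, 8 had a ratio of at most 0.5. The 5 smallest were all of the split kind. They were a fragment of 481 bp at Neat1 (log2 ratio -4.22, under a QSC peak of 8936 bp), Gm14488 (lncRNA, -3.18), Gm19426 (lncRNA, -3.0), a fragment of 542 bp at Mir22hg (-2.66) and the peak at chr8:84197220-84198714 (-2.37). With peaks at most 1 kb apart joined, Gm14488 came to -1.47 and the last 2 to -0.48 and 0.05, while the joined peaks over the Neat1 fragment and Gm19426 were no longer intergenic and gave no value. The main Neat1 peak was 10097 bp long in ASC (QSC 8936 bp) and Malat1 9573 and 9071 bp, so these abundant nuclear RNAs had long peaks of nearly equal length in both states.

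**Figure D4:**
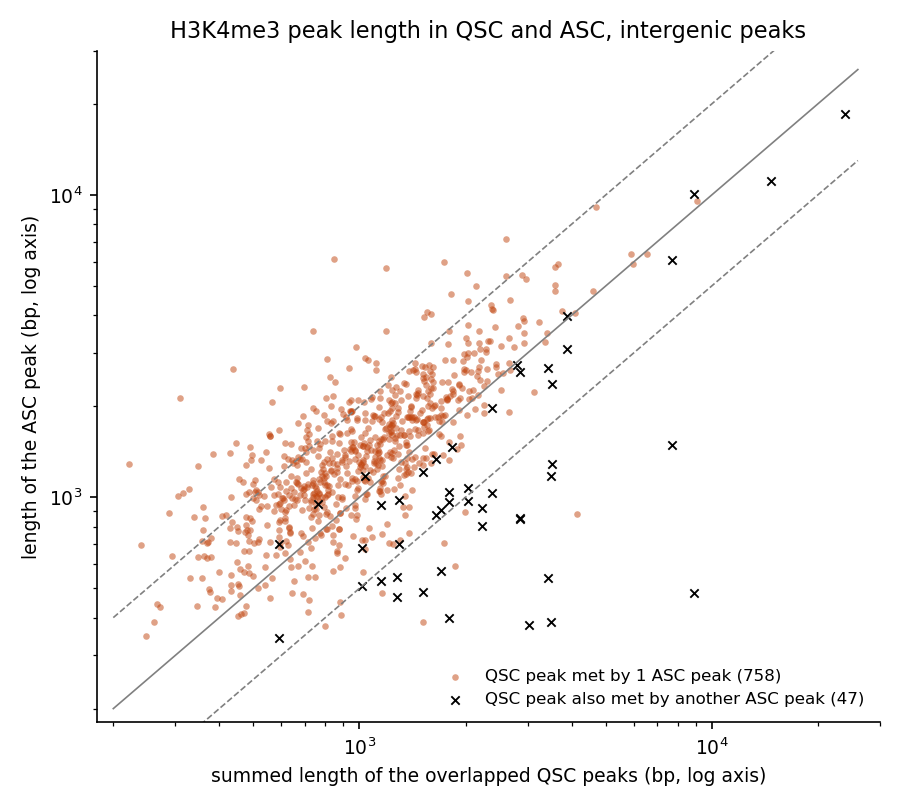
Length of each of the 805 intergenic peaks in ASC (y axis, bp, log axis) against the summed length of the QSC peaks it overlaps (x axis, bp, log axis). The solid line is equality and the dashed lines are ratios of 2 and 0.5. Crosses, the 47 peaks whose QSC peak also meets another ASC peak, make up 19 of the 27 points at or below the lower line.

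H3K27me3, which the rule did not use, covered part of these peaks. A broad H3K27me3 peak overlapped 123 in the QSC list (15.3%, against 14% of all shared peaks) and 204 in the ASC list (25.3%, against 20.7%). Both lists touched 109 (13.5%, against 12.1%), the ASC list alone 95 (11.8%, against 8.56%) and the QSC list alone 14 (1.74%, against 1.87%). The direction was the same at the other places, with 14.7% and 23.6% in gene bodies and 13.8% and 20.0% at gene ends. Narrow H3K27me3 peaks touched 36 in QSC (4.47%, against 4.52%) and 71 in ASC (8.82%, against 9.72%). Many broad peaks were weak by the authors' q, and with a q of at most 0.05 the shares of these 805 were 7.70% and 12.8%. The shares over all shared peaks were not computed at this limit, so these 2 values have no background. Peaks with a tRNA record had 8 of 64 in QSC and 7 of 64 in ASC, those with a small nuclear or nucleolar RNA 0 and 2 of 16, those with a lncRNA 56 and 94 of 362, and those with no record 52 and 87 of 341.

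**Figure D5:**
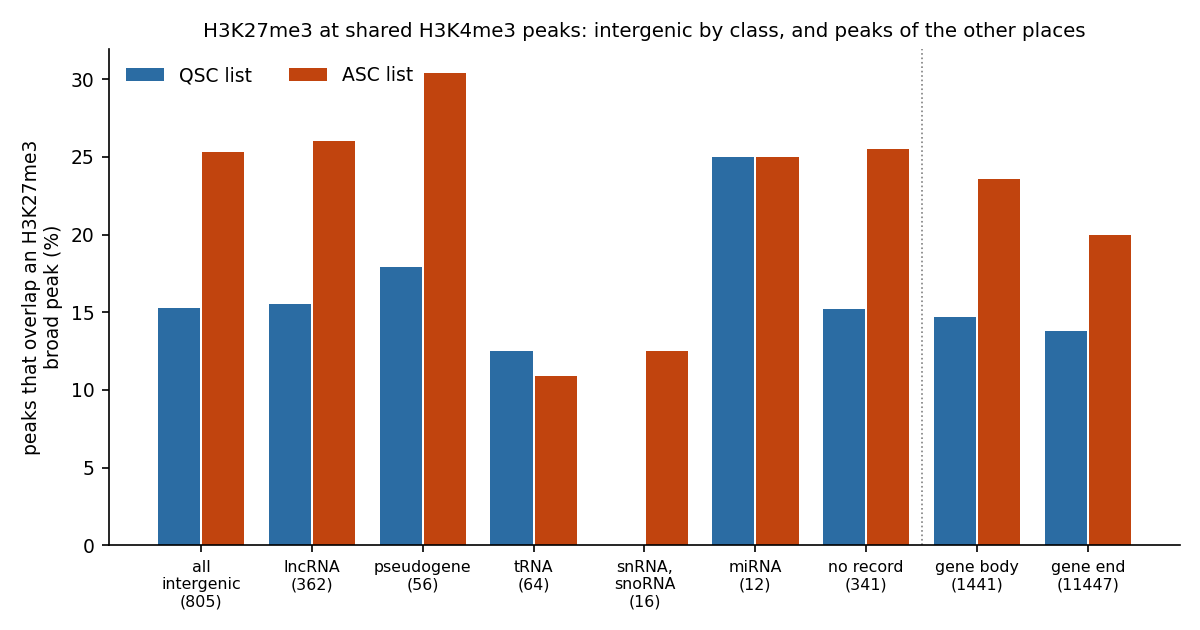
Share of shared H3K4me3 peaks that overlap a broad H3K27me3 peak in the QSC and in the ASC list (y axis, %, from 0), for the intergenic peaks, for their record classes, and, right of the dotted line, for peaks in gene bodies and at gene ends (number of peaks in brackets). The ASC bar is the higher one for all intergenic peaks (25.3% against 15.3%), and for tRNA peaks it is the lower one (10.9% against 12.5%).

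Median H3K4me3 folds were also compared by H3K27me3 state. Between genes the median ASC fold was 8.67 at the 109 peaks with H3K27me3 in both states and 8.67 at the 587 with it in neither, whereas at gene ends it was 10.6 and 22.9 and in gene bodies 9.38 and 14.3. The 95 intergenic peaks with H3K27me3 in ASC alone had a median of 7.22 and the 14 with it in QSC alone 10.3. In the QSC list the intergenic medians were 5.32 with H3K27me3 in both states, 6.05 in neither, 5.77 in ASC alone and 4.72 in QSC alone.

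Of the 10 peaks with the most bases under H3K27me3, some lay at tRNA genes, pseudogenes, lncRNAs or a miRNA host, and 3 (near Cdk1, Commd3 and Adgrl1) had no noncoding record. The bases covered cannot exceed the length of the ASC peak. The ranking therefore favours long peaks and is no measure of H3K27me3 strength. The peak at n-TRacg1 and n-TScga1 (chr13:22019446-22022989) was covered over 3544 bp in QSC, by a broad peak of 48634 bp, and over 1999 bp in ASC. The pseudogenes Gm21321 and Gm16505 were covered over 3483 and 3276 bp in both states. The lncRNA Gm29418, 110156 bp from Six2, was covered over 3139 bp in QSC (ASC 3230 bp), and the lncRNA Gm29595 over 880 and 3219 bp. Mirc35hg, the host of miR-183, miR-96 and miR-182, which are known from sensory cells, was covered over all 2774 bp in both states, with authors' H3K27me3 folds of 3.90 and 4.70. The peak at Gm13067 (lncRNA), 17874 bp before miR-34a, a target of p53, was covered over all 2691 bp in both. The peak near Cdk1 was covered over 2664 bp in ASC (QSC 1248 bp), and a peak 62482 bp from Commd3 over 350 and 2648 bp. A peak 23299 bp from Adgrl1 had no H3K27me3 in QSC and 2510 bp in ASC, under a broad peak of 70457 bp.

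Further peaks with both marks in both states included Hotair, a lncRNA of the Hoxc cluster, with 1909 bp covered in QSC and 699 bp in ASC. Mir124a-3, a neuronal miRNA, was covered over all 1849 bp in both states. The promoter of Terc had 1670 bp in QSC (ASC 377 bp), and a peak 14693 bp from Cbx8, a Polycomb gene, 1562 bp in QSC and 2348 bp in ASC. At Meg3 the whole 593 bp were covered in ASC and none in QSC. Among the 14 peaks with H3K27me3 in QSC only, the strongest H3K4me3 was at Mir193a, where a broad peak of 743 bp with a -log10 q of 0.50 lay inside. Over the 14 the highest -log10 q of the broad peak was 1.88, at n-TPtgg8 and n-TPagg7.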

How the data were processed

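H3K4me3 and H3K27me3 were profiled by ChIPmentation in 16 samples (8 immunoprecipitated, 8 input), sequenced as 2 reads of 75 bp per the labels' protocols. Per the submitters' processing notes, peaks and coordinates are on build mm10, and the programs named are MACS2 2.1.1, bedtools 2.26.0, SAMtools 1.3, Picard 2.9.2, Bowtie2 2.3.2, Trimmomatic 0.36 and bcl2fastq 2.19, with no settings or order. The authors deposited 8 peak lists, 1 narrow and 1 broad for each state and mark. For each peak the authors give a fold enrichment, which is a linear ratio, and a -log10 q-value, and in narrow lists the offset of the summit. These fold values are the authors' own and served only to rank, filter or describe peaks of the same list. Samples were grouped by their titles. The labels name the same list for both replicates, so lists were treated as pooled, no test was run, and the depth per sample is unknown.

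From these lists, Python 3.11.15 with pandas 2.3.3 and NumPy 2.4.6 computed overlaps of at least 1 bp and places relative to 21887 protein-coding and 28056 other records of the RefSeq gene table (GRCm38.p6, without strand), on the autosomes, X and Y. A noncoding record was at a peak when it overlapped or lay within 1 kb. The length ratio is the ASC peak length over the summed length of the QSC peaks it overlaps. An H3K27me3 call is an overlap of at least 1 bp with a broad peak. The overlap code was checked on simulated intervals. Intervals for shares (95%, Wilson, SciPy 1.17.1) were used to judge alternatives and cover counting error only.

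Peaks named in the text are the 10 with the highest ASC fold, the 5 largest and 5 smallest length ratios and the 10 with most bases under H3K27me3. Others are 5 on either side of the distance limit and those at or nearest to genes of prepared lists (at most 10 a list). Of the 10 longest not all are described above, for example chr5:100423784-100430943 (7160 bp in ASC, 2606 bp in QSC). Peaks beside miRNA hairpins, the genes of the cell type check and other single peaks were named after their values were seen. The peaks and lists were chosen with earlier results of these data known. No genome sequence was used here, so sequence is shown only for miRNAs and promoters of the RefSeq tables. Alternatives changed the peak filters, the overlap, the distance, merging, the direction and the list type.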

Additional observations from a re-analysis of the deposited data

How the results depend on the processing

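The number of intergenic shared peaks stayed within 1.5 times the 805 under 10 of 11 alternatives, from 551 (more than 10 kb from coding genes) to 876 (more than 1 kb). The broad H3K4me3 lists gave 3474. A share counts as moved when it leaves the 95% interval of the reported share. The share with a noncoding record, 57.6%, moved to 34.4% with broad lists and to 52.4% where the record had to overlap the peak. The tRNA share, 7.95%, moved to 1.90% with broad lists and to 4.90% beyond 10 kb. The share with a length ratio of at least 2, 13.8%, moved to 16.9% with broad lists, 20.4% counted over QSC peaks and 0 where the overlap had to cover 50% of both peaks, which no such ratio can meet. The share at or below 0.5, 3.35%, moved to 19%, 1.09% and 0 under the same settings and to 1.45% with merged peaks. The ratio of the peak at chr8:84197220-84198714 changed sign with merging, from -2.37 to 0.045, because its neighbour was joined to it. H3K27me3 in QSC, 15.3%, moved to 26.5% with broad H3K4me3 lists, 12.7% over QSC peaks, 4.47% with narrow H3K27me3 lists, 10.6% with at least 500 bp covered, 7.70% with a q of at most 0.05 and 3.85% with a fold of at least 3. H3K27me3 in ASC, 25.3%, moved to 31.2%, 20.5%, 8.82%, 16.3%, 12.8% and 5.71% in the same order. Apart from the narrow H3K27me3 lists, these settings were not run over all shared peaks. The number with H3K27me3 in ASC alone less that in QSC alone, 10.1 percentage points of the 805, was positive under all 15 alternatives run. All of these use the authors' pooled lists. Over all shared peaks ASC alone was also the more frequent, with 8.56% against 1.87%. The value for the 805 moved to 4.69 with broad H3K4me3 lists, 4.35 with narrow H3K27me3 lists and 5.71 with 500 bp. It moved to 5.09 with the q limit and 1.86 with the fold limit. Apart from the constructions named, the cause of these moves was not tested.

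No paired analysis was possible because each group has 1 peak list for both replicates, so there is no fit with a replicate block and no leave-one-out value. Depth is unknown. Of the 1305 intergenic ASC peaks 61.7% had a QSC partner, against 91.2% at gene ends, and the part of depth in this was not tested.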
